A study of Mus musculus with 10 samples.

Results

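The late response to pressure overload was read from the 4 arrays of days 14 and 28 after surgery, 1 of transverse aortic banding (TAB) and 1 of sham operation on each day. They were taken by the operation and day in the sample titles, and they are 4 of the 10 mRNA arrays of the series; the other 6 cover days 3, 5 and 7. All animals were male C57BL/6J mice with no genetic change and no drug named in the labels, operated at 8 weeks of age, and the RNA was that of the left ventricle. TAB narrows the aorta so that the left ventricle ejects against a raised pressure, and the sham-operated mice of the same day were the controls. For the banded sample of day 14, the condition field reads 15 days but the title and source read 14, and 14 was taken. The number of mice behind an array is not given in the sources used here. Each array is of another operation or day, and so of other mice. How much of the spread between arrays came from mice, day or technique therefore cannot be told. The question was which genes still differed between TAB and sham hearts 2 and 4 weeks after banding, and by how much against the spread between the 5 sham arrays.

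A ventricle under sustained pressure thickens as its cardiomyocytes grow, switches on genes of the fetal heart such as the natriuretic peptides, and lays down collagen made by activated fibroblasts. Macrophages gather early after the load is imposed. Over weeks the adult heart tends to lower genes of fatty acid oxidation and of the potassium currents that end the action potential, and fibrosis can become a lasting scar.

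Cy5 intensity of each spot was measured on a one-colour oligonucleotide array, and values below are intensities after quantile normalization, comparable between arrays for one gene but not between genes. A log2 ratio is TAB over sham of the same day. Of 16113 genes, 11392 had a spot that the scanner software found on all 4 late arrays and 2439 were found on none of them, where "not found" was read from a negative flag and is treated as not well above background. Where both late arrays of a side were not found, the fold is given as a bound ("at least"). The arrays carried the genes of working heart muscle: Tnnt2 (cardiac troponin T) read 32965 and 34765 on the TAB arrays and 35992 and 33244 on the sham arrays. Of 3 lung markers (Sftpc, Sftpb and Scgb1a1) none was found on all 4 late arrays, and of 15 genes of T, B and NK cells 5 were.

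Each late sham array stood apart in some genes. The sham array of day 28 was the lowest of all 10 by at least 2-fold in 132 genes, of which 97 were found on every array, whereas any other array did so in 6 to 83 genes, with 0 to 11 of them found on every array. By this definition all 132 count among the 960 genes at least 2-fold higher in TAB on day 28, and 39 of them had a TAB value on day 28 inside the range of the other 4 sham arrays. The sham array of day 14 was high in immediate-early and atrial genes, and in clock genes it lay with the sham array of day 3 and not with the other 3, as described with those genes below. What set these arrays apart was not tested.

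**Figure D1:**
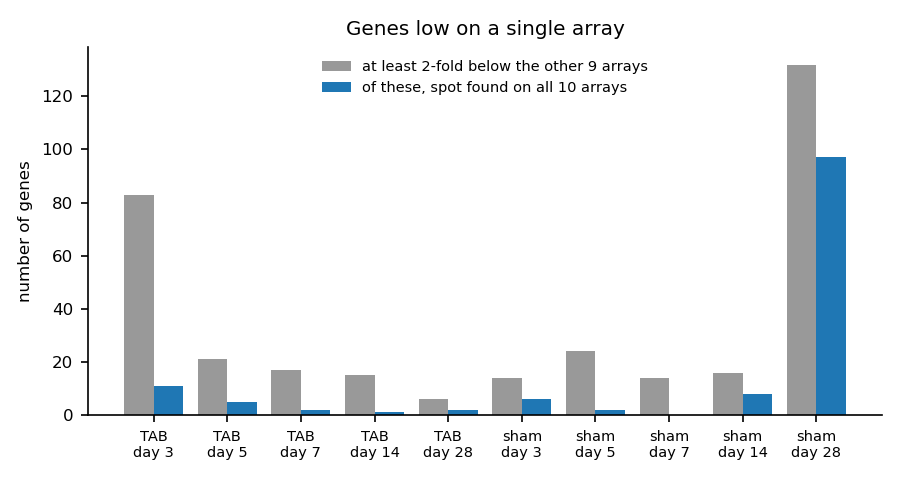
Number of genes (vertical axis) for which a single array (horizontal axis) lay at least 2-fold below the other 9 arrays, with the spot found on those 9 (grey), and those found on all 10 arrays (blue). The sham array of day 28 has 132 and 97 genes, against 83 and 11 for the next array, TAB of day 3.

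Across all genes, 1226 were at least 2-fold higher and 884 lower in TAB on day 14, and 960 were higher and 842 lower on day 28. Between any 2 of the 5 sham arrays 1310 to 1794 genes differed as much, so the day 28 count of 1802 was barely above the highest sham pair and the day 14 count of 2110 exceeded it. The SD of the log2 ratio was 0.74 on day 14 and 0.69 on day 28, beside 0.59 to 0.70 between sham arrays. On both days in the same direction, 294 genes (1.82% of all) were at least 2-fold higher and 133 (0.825%) were at least 2-fold lower, and 173 were past 2-fold in opposite directions. Of the 294, 106 were found on all 4 late arrays, and 150 were not found on either late sham array. Of the 133, 22 were found on all 4, and 95 were not found on either late TAB array. A larger share of the higher genes was therefore measured on both sides.

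Both late TAB values lay above all 5 sham values for 2397 genes (14.9%) and below all 5 for 1925 (11.9%). With scaling to the median alone the split was 3025 above and 1306 below, and with quantile normalization within each operation it was 3042 and 1414. Of the 294 higher genes 243 lay above all 5 sham values, and of the 133 lower genes 70 lay below them. The ratio was smaller on day 28 than on day 14 for 192 of the 294, with medians of 1.74 and 1.46 (log2), and smaller in size for 70 of the 133, with medians of −1.54 and −1.45. The ratios of the 2 days share no array, and across genes they correlated with a Pearson r of 0.229 (Spearman rho 0.298), or 0.400 over the 11392 genes found on all 4 arrays. Genes are not independent replicates, so no p is attached.

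In limma across all 10 arrays, with day as a block and the late and early TAB effects fitted separately, no gene (0%) passed an adjusted p of 0.05 for the late effect. The lowest adjusted p was 0.0969, and 2362 genes had an unadjusted p under 0.05 (1283 higher, 1079 lower), with 3 residual degrees of freedom. When only probes found on all 4 late arrays were tested, limma called 78 of 11869 genes (0.657%), 70 higher and 8 lower. Limma also called no gene with the other normalizations, with other choices of probe, without any one day or on the 4 late arrays alone. It called 66 genes without the day block and 174 for late TAB against all 5 sham arrays. With trend and robust estimation, or with dim genes left out or damped, it called 78 to 438. Higher and lower below therefore describe values, and the genes among the 78 are named as such.

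**Figure D2:**
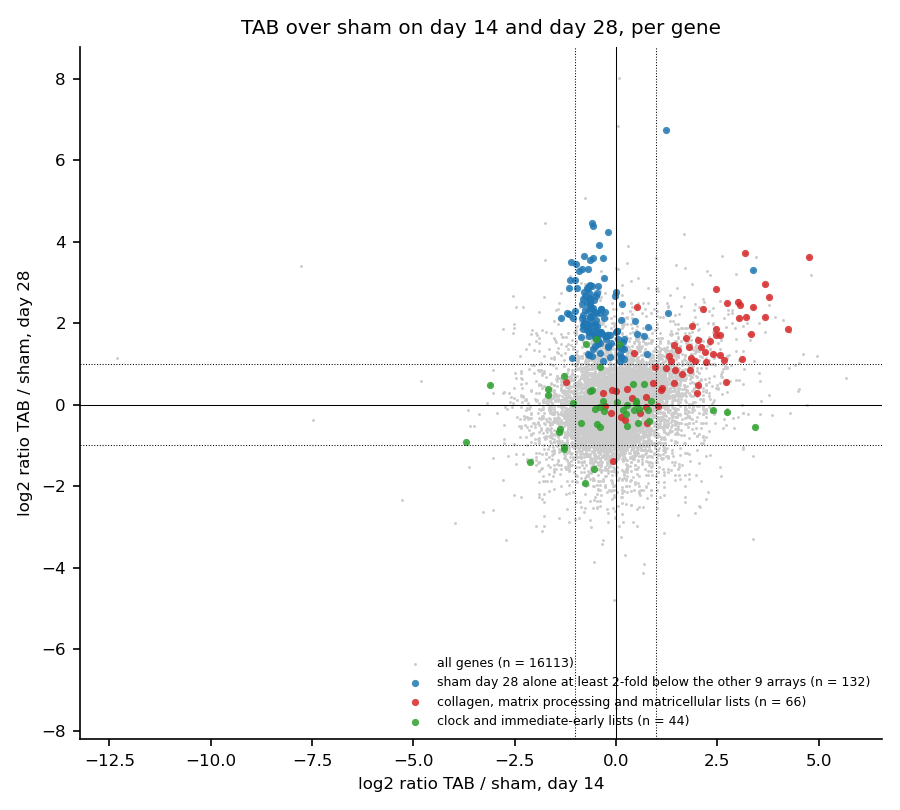
Log2 ratio of TAB over sham on day 14 (horizontal) and day 28 (vertical) for each of 16113 genes (grey), with dotted lines at 2-fold. Genes of the 3 matrix lists (red) extend to the upper right, the 132 genes low on the sham array of day 28 alone (blue) lie high on day 28, 3 of them (Mfap4, Slitrk4 and Hmox1) past 2-fold on both days, and clock and immediate-early genes (green) spread along the day 14 axis.

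Most of the extracellular matrix genes examined were higher in TAB on both late days. Of 66 measured genes on the lists of collagen chains, of matrix processing and of matricellular proteins and proteoglycans, 36 (54.5%) were at least 2-fold higher on both days and none was 2-fold lower, beside 1.82% and 0.825% of all genes. Both TAB values lay above all 5 sham values for 47 of the 66 (71.2%), beside 14.9% of all genes. With found probes, 16 of the 58 that could be tested were among the 78 called, beside 0.657% of all genes tested. The lists were chosen with earlier results of these data known, so list shares here and below are descriptions and not tests. Whole ventricle was measured, so in these and all results below fewer cells of a type and less RNA per cell cannot be told apart.

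Collagen chains had a median log2 ratio of 2.002 on day 14 and 1.07 on day 28, and the largest median of this list between 2 sham arrays was 0.56. Col1a2, a chain of fibrillar type I collagen, read 1289 and 472 in TAB on days 14 and 28 and 158 and 108 in sham. Col3a1, the chain of type III collagen, read 395 and 99.3 in TAB and 58.9 and 17.5 in sham. In both genes the 2 TAB values exceed all 5 sham values, and the sham value of day 28 is itself lower than that of day 14. Col8a1, a short-chain network collagen, read 3511 and 2190.2 in TAB against 439 and 380.1 in sham, 6.79-fold higher on average, with a log2 difference of 2.76 ± 0.18 (limma SE; adjusted p = 0.0969 over all genes and 0.00472 over genes with found probes). Its sham values span only 335 to 453. The basement membrane chain Col4a1 stood at 4709.6 and 3251 in TAB and 1759 and 1184 in sham, and Col4a2 was higher by log2 ratios of 1.30 and 1.19. Col5a3 showed no such difference, with 409.9 and 306 in TAB inside the sham range of 243 to 444. Col1a1 was not measured, because its probes fell below an intensity of 1 on an array.

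Matricellular proteins sit in the matrix and modulate cells rather than bear load. Of 25 genes on that list 17 were at least 2-fold higher on both days, beside 1.82% of all genes. Postn (periostin, made by activated fibroblasts) read 13066 on day 14 and 7229.9 on day 28 in TAB, against 1262 and 1369.8 in sham. The 5 sham arrays kept Postn within 1193 to 1369.8, so the groups are far apart, with a log2 difference of 2.89 ± 0.27 (limma SE; adjusted p = 0.0988, and 0.0137 with found probes). Cilp, a cartilage intermediate layer protein, read 1461 and 781 in TAB and 115 and 100.3 in sham, 9.94-fold higher on average, and Thbs4 (thrombospondin 4) read 1996 and 1395 against 238 and 255. Both are among the 78 called by limma with found probes (adjusted p = 0.00472 and 0.0110), as are Spp1, Wisp2, Fmod, Aspn, Comp, Sparc and Bgn. Dcn and Ogn, small proteoglycans of the resting heart, gave TAB values that overlapped the sham range, with log2 ratios of 0.39 and 0.17 for Dcn and 0.60 and −0.19 for Ogn.

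Of 24 matrix processing genes 9 were at least 2-fold higher on both days, beside 1.82% of all genes. The collagen cross-linking oxidases Loxl1, Loxl2 and Lox were at least 2-fold higher on both days, with log2 ratios of 2.03 and 1.58 for Loxl1. Lox read 404 and 109 in TAB against 21.5 and 30.3 in sham, where its spot was found on 1 of the 2 late sham arrays. Loxl3 and the protease Adamts8 were not found on either late sham array and were at least 5.87-fold and 7.36-fold higher. Timp1, an inhibitor of matrix metalloproteinases, read 1776 and 809 in TAB and 128 and 130.1 in sham, 9.27-fold higher on average. The gelatinase Mmp2 read 6071 and 2774 against 1025 and 846. Timp1 and Mmp2 are the members of this list among the 78 called (limma adjusted p = 0.0218 and 0.0271 with found probes). Mmp3, Mmp9, the prolyl hydroxylases P4ha1 and P4ha2 and the collagen chaperone Serpinh1 overlapped the sham range.

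**Figure D3:**
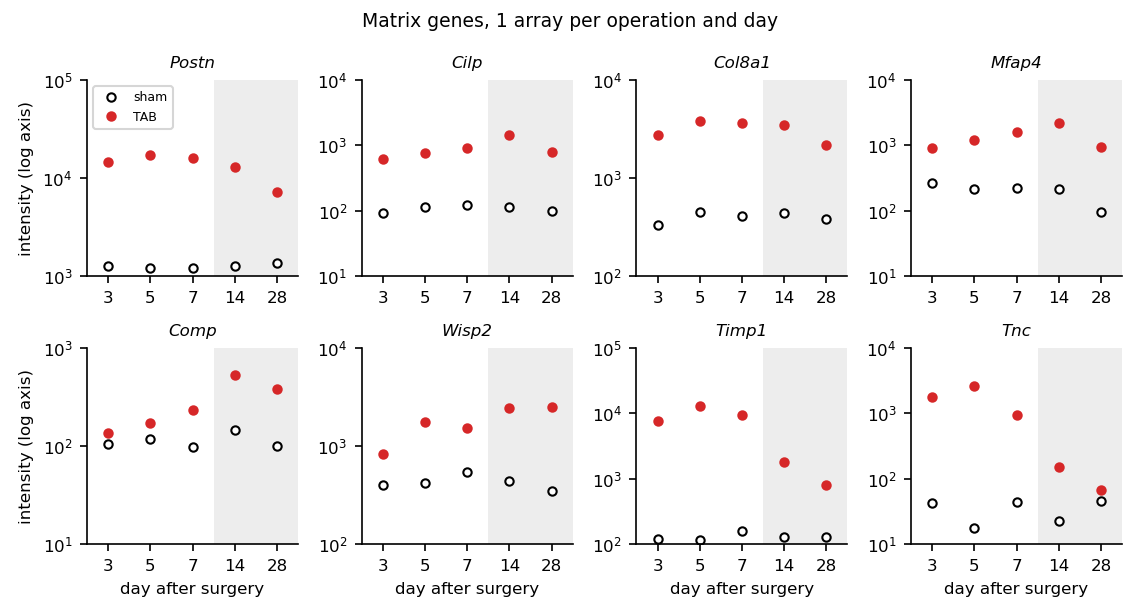
Normalized intensity (log axis) of 8 matrix genes on each array, by day after surgery, for sham (open) and TAB (red), 1 array per point, with days 14 and 28 shaded. Postn, Cilp, Col8a1 and Mfap4 stay above every sham value on both late days, Comp and Wisp2 are highest on the late TAB arrays, and Timp1 and Tnc are lower on days 14 and 28 than on days 3 to 7.

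Most matrix genes had a smaller TAB over sham ratio on day 28 than on day 14. The TAB value was lower on day 28 than on day 14 for all 17 measured collagen chains, beside 50.2% of all genes. Sham values of these chains were also lower on day 28, with a median log2 difference from sham day 14 of −0.34. The log2 ratio was smaller on day 28 for 16 of the 17, beside 51.6% of all genes. Of the 36 matrix genes past 2-fold on both days, 31 had a smaller ratio on day 28, beside 192 of all 294 genes higher on both days. With 1 array a day this step has no test. Against days 3 to 7, the mean late log2 ratio was below the mean early ratio for 16 of 17 collagen chains, 17 of 24 matrix processing genes and 15 of 25 matricellular genes, beside 49.1% of all genes. Tnc (tenascin C) read 149 and 67.0 in late TAB, 961 to 2596 in early TAB and 17.7 to 45.7 in sham, and Spp1 (osteopontin) read 567 and 306 in late TAB against 2843 to 3587 in early TAB. Wisp2 (now Ccn5, a member of the CCN family) went the other way, with 2448 and 2486 in late TAB, 837 to 1759 in early TAB and 345 to 541 in sham. Comp (cartilage oligomeric matrix protein) read 536 and 383 late, 134 to 235 early and 98.4 to 147 in sham. Fmod (fibromodulin) and Tnmd (tenomodulin), both known from tendon, followed the same order, with late TAB values of 182 and 195 for Tnmd, 57.6 to 85.1 in early TAB and 49.6 to 66.4 in sham. For the late minus early difference limma called no gene over all genes (lowest adjusted p = 0.191; 1766 with an unadjusted p under 0.05), and 3 with found probes, all 3 lower late. The log2 difference between late and early effects was −2.89 ± 0.29 for Spp1, −3.02 ± 0.48 for Timp1, 1.19 ± 0.33 for Comp and 1.46 ± 0.23 for Tnmd (limma SE).

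Of the TGF-beta and activin genes, which drive fibroblast activation, 3 of 14 were at least 2-fold higher on both days and none lower, beside 1.82% and 0.825% of all genes. Tgfb3, a TGF-beta ligand, read 678 and 433 in TAB against 158 and 142 in sham. The stress-induced family member Gdf15 read 684 and 275 against 129.7 and 68.1, and the secreted protein Fstl1 read 4305 and 2415 against 887 and 875. All 3 lay above all 5 sham values and are among the 78 called. Tgfb1 overlapped the sham range, with log2 ratios of −0.18 and −0.42, and the inhibitory Smad6 and Smad7 had log2 ratios between −0.13 and 0.14.

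Of 22 fibroblast and myofibroblast genes 3 were at least 2-fold higher on both days (1 with a pseudocount of 50), beside 1.82% of all genes, and 10 lay above all 5 sham values and none below, beside 14.9% and 11.9%. The list median was 0.36 on day 14 and 0.42 on day 28, beside up to 0.40 between sham arrays. Meox1, a homeobox gene of activated fibroblasts, read 696 and 381 in TAB against 195 and 117 in sham. Thy1, a surface marker of fibroblasts, read 663 and 541 against 236 and 248, and Sox9 was at least 4.41-fold higher. The smooth muscle and myofibroblast actin Acta2, in contrast, read 307 and 229.6 in late TAB, inside or below the sham range of 243 to 361, after 576 to 620.1 in early TAB. Tcf21, a marker of resting fibroblasts, was at log2 ratios of 0.26 and 0.20.

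**Figure D4:**
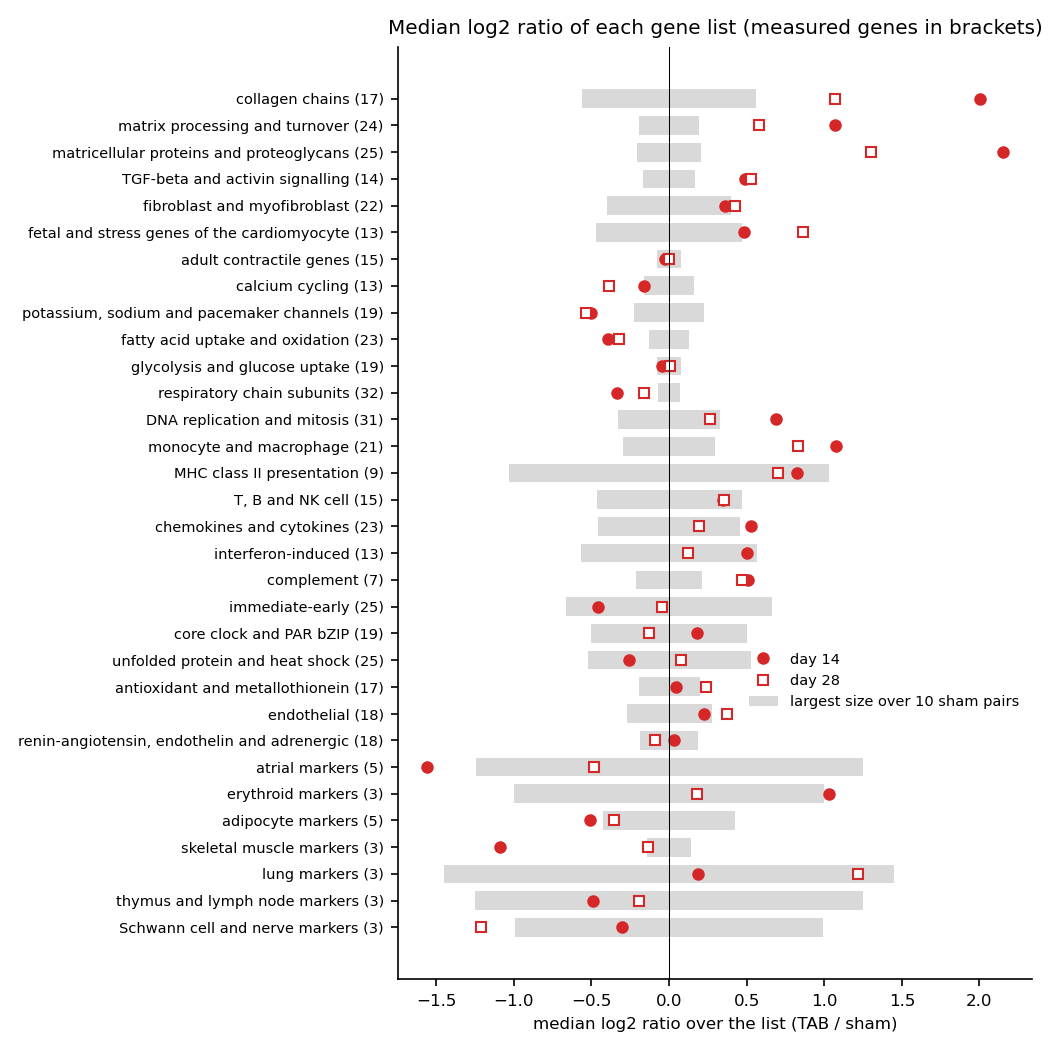
Median log2 ratio of TAB over sham of each gene list (rows, with the number of measured genes) on day 14 (filled) and day 28 (open), and the largest size of the same median between any 2 sham arrays (grey, drawn to both sides of 0). In 11 of 32 lists both medians lie beyond the grey bar in one direction, 7 higher and 4 lower.

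Among stress genes of the cardiomyocyte, 4 of 13 were at least 2-fold higher on both days and none lower, beside 1.82% and 0.825% of all genes. Against the mean of the 5 sham arrays, or of the 3 early ones, 7 of the 13 were. Their medians were 0.48 on day 14 and 0.86 on day 28, beside up to 0.47 between sham arrays. Acta1, the skeletal actin of the fetal heart, read 17263 and 18823 in TAB against 5645 and 5055 in sham, and its 5 sham values span 3443 to 5645. It was 3.37-fold higher on average, a log2 difference of 1.75 ± 0.16 (limma SE; adjusted p = 0.0988, and 0.0153 with found probes). The TAB value of day 28 is the highest of the 5 TAB values. The RefSeq promoter window of Acta1 is shown because it holds a CArG box, the element bound by serum response factor (in capitals, 73 bases before the start), at chr8:123894726-123895025 on the minus strand of GRCm38.p6.
Acta1: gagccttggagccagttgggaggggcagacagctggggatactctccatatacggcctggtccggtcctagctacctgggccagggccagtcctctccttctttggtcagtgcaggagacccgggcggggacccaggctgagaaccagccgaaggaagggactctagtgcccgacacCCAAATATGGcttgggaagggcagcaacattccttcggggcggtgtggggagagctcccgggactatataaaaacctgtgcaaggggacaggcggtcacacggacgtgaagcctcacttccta
A CArG box on either strand was found in 3 of 17 windows of this list (Acta1, Fhl1 and Myl7), and in 1.63% of all 32851 windows of the same length. A match is a match of letters only.

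The natriuretic peptide gene Nppa read 35180.2 and 27225 in TAB against 16153 and 8674 in sham, above all 5 sham values. Nppb, the B-type peptide, read 17554 and 14720.2 in TAB, and its sham value was 3819 on day 28 but 15606 on day 14, where the sham array exceeded the other 4 sham values. Its log2 ratio was accordingly 0.17 on day 14 and 1.95 on day 28. The actin-binding Xirp2 read 26482 and 22177 against 10844 and 10149.6, and the LIM-domain gene Fhl1 read 11514 and 9503 against 4242 and 3876. A probe named for both Myh7, the slow myosin heavy chain of the fetal ventricle, and LOC100862557 read 10122 and 7929.8 in TAB, 3997 on sham day 14 and 1222 on sham day 28; it is not counted for either gene. Nmrk2 (listed as Itgb1bp3), a nicotinamide riboside kinase of muscle, read 1096 and 389 against 224 and 79.2, and was among the 78 called (limma adjusted p = 0.0110 with found probes). It was lower than in early TAB, where it read 1893 to 2329.7.

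None of the 15 adult contractile genes was 2-fold different on either day, and their median log2 ratio was −0.03 on day 14 and 0.00 on day 28. Myh6, the fast myosin heavy chain of the adult heart, read 41076 and 38088 against 53379.7 and 48439.5, within the sham range of 28869 to 53379.7. Myl2 was saturated on arrays of both groups. Among the 13 calcium cycling genes none was 2-fold different on both days, 3 lay below all 5 sham values and 1 above, beside 11.9% and 14.9% of all genes. Atp2a2, the calcium pump of the sarcoplasmic reticulum, read 115 and 137 in TAB and 193 to 218 over the 5 sham arrays, 1.57-fold lower than sham of the same day on average. Trdn (triadin, of the calcium release complex) read 1856 and 1929.5 against a sham range of 2886 to 3793. The calcium channel subunit Cacnb2 read 167 and 227 against 267 to 409. Their limma adjusted p-values were 0.224, 0.239 and 0.202.

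Some potassium channel genes were lower. Of 19 potassium, sodium and pacemaker channel genes 3 were at least 2-fold lower on both days (none with a pseudocount of 50), beside 0.825% of all genes, and 7 lay below all 5 sham values, beside 11.9%. None was 2-fold higher on both days, 1 lay above all 5 sham values, beside 14.9%, and 4 were not found on any late array. The list's medians were −0.51 and −0.53, against at most 0.22 between sham arrays. Kcnd2, which carries the transient outward current, read 65.9 and 93.2 in TAB against 151 and 239.6 in sham. Its accessory subunit Kcnip2 read 307 and 447 against 614 and 648, and the inward rectifiers Kcnj3 and Kcnj2 were lower by log2 ratios of −1.40 and −1.15 and of −0.86 and −0.32. Kcnv2, a modifying subunit, read 146 and 143 against 319 and 397. In early TAB Kcnv2 had been lower still, at 59.2 to 112. No channel gene was among the 78 called, and the lowest adjusted p of those named here was 0.199 (limma, Kcnv2). Of the receptors of the adrenergic list, Adra1b was not found on either late TAB array and was at least 3.94-fold lower.

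Many genes of fatty acid oxidation and the respiratory chain were lower by small folds. No gene of fatty acid uptake and oxidation was 2-fold lower on both days, but both TAB values lay below all 5 sham values for 13 of 23 (56.5%), beside 11.9% of all genes. The medians were −0.39 and −0.32, beside up to 0.13 between sham arrays. Acadm, the medium-chain acyl-CoA dehydrogenase, read 20319 and 21523 in TAB and 26438 to 28691 over the sham arrays. The fatty acid transporter Cd36 read 982 and 1263 against 1597 to 1848, and the carnitine carrier Slc25a20 read 3273 and 4192 against 5231 to 6366. In early TAB Cd36 read 629 to 1017 and Slc25a20 2587 to 4153, ranges that reach the late TAB values of day 14. Ppargc1a, the coactivator of mitochondrial genes, read 56.8 and 115 and overlapped the sham range on day 28. Subunits of the respiratory chain had 16 of 32 below all 5 sham values and 1 (Atp5o) above them, with medians of −0.34 and −0.16. Among them Uqcrc1, of complex III, read 5374 and 6149 against 6877 to 8304. Glycolysis genes had medians of −0.05 and 0.00. Bdh1, which oxidizes ketone bodies, was higher, at 718 and 1114 against 299.9 and 437 in sham and 417 to 704 in early TAB, and was among the 78 called. No fatty acid or respiratory chain gene was called.

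Most macrophage genes were above sham on both late days. Of 21 measured, 5 were at least 2-fold higher on both days beside 1.82% of all genes (3 against the mean of the 5 sham arrays, 2 with a pseudocount of 50), and 18 (85.7%) lay above all 5 sham values, beside 14.9%. Cd68, a lysosomal marker, read 599 and 549 in late TAB, 253 to 356 in sham and 1704 to 2103 in early TAB. Trem2, a receptor of lipid-handling macrophages, read 218 and 159.7 late, 50.6 to 67.6 in sham and 360.0 to 642 early. Ccr2, the receptor of recruited monocytes, read 78.9 and 62.4 against 23.7 to 44.0 in sham. These late values lie between the sham and the early TAB values. Trem2, Cd14 and the complement receptor C3ar1 were among the 78 called. Cd163, a scavenger receptor of resident macrophages, read 553 and 612 late and 339.6 to 483 early, against 294 to 521 in sham. The secreted Retnla was lower, at 84.1 and 211 against 259.5 and 608 in sham (limma adjusted p = 0.0378 with found probes). MHC class II genes overlapped the sham range in 8 of 9 cases, beside 73.2% of all genes, and the sham values of H2-Aa spanned 4570.2 to 8531. Of 23 chemokines and cytokines 3 were at least 2-fold higher on both days (none with found probes), beside 1.82% of all genes, and 8 lay above all 5 sham values, beside 14.9%. The monocyte chemokines Ccl2 and Ccl7, at 577 to 791 and 289 to 588 in early TAB, were inside the sham range on both late days. A probe named for both Ccl12 and LOC100862578 read 970.0 and 643 in late TAB, above its highest sham value of 440.1.

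Endothelial genes lay above all 5 sham values in 12 of 18 cases (66.7%), beside 14.9% of all genes, with none 2-fold different on either day. Their median log2 ratio was 0.22 on day 14 and 0.37 on day 28, beside up to 0.27 between sham arrays, so that of day 14 lies within the sham spread. Cdh5, the cadherin of endothelial junctions, read 2473 and 2349 in late TAB, 1330.5 to 1649 in sham and 1345 to 1897 in early TAB. Tie1 read 1184 and 1303 against 845 to 987, and Pecam1 and Kdr overlapped the sham range. None was called.

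Replication and mitosis genes differed on day 14 more than on day 28, with medians of 0.69 and 0.26. The largest median of this list between sham arrays, 0.33, was that of sham day 28 over sham day 14, so the day 28 median lies within the sham spread. Of the 31 measured, 16 were found on all 4 late arrays. Several were very low on the sham array of day 14. Top2a (topoisomerase II alpha) read 83.2 and 64.8 in TAB, 41.1 in sham on day 28 and 1.64 in sham on day 14. Ccna2 (cyclin A2) read 111 and 69.3 in TAB, 34.3 on sham day 28 and 4.85 on sham day 14. Both sham day 14 values are below 5.89, the lowest value of a found spot on that array. Neither spot was therefore found there, and these values stand for background. The TAB values of both genes lie above all 5 sham values, and in early TAB they had reached 497 and 543. The spindle checkpoint kinase Bub1b and Aurka were not found on either late sham array and were at least 5.41-fold and 2.92-fold higher. Mki67 was not found on any late array.

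Large differences were also found outside the lists. Mfap4 and Mfap5, microfibril-associated glycoproteins, were 10.1-fold and 8.69-fold higher, with log2 ratios of 3.37 and 3.30 for Mfap4 and 3.79 and 2.45 for Mfap5. Mfap4 is one of the 132 genes low on the sham array of day 28, where it read 96.0 against 212 on day 14. Its TAB value of day 28, 944, is also above the other sham values, which reach 265. Slitrk4 also met the 2-fold rule on both days, but its spot was not found on the sham array of day 28 and was found at 900.2 on that of day 14, so no fold is given for day 28. Star, the cholesterol carrier of steroid synthesis, was not found on either late sham array and was at least 6.67-fold higher. Frzb, Sfrp2 and Nbl1, secreted antagonists of Wnt or BMP signals, were among the 78 called, with log2 differences of 1.96, 2.62 and 1.28. So were Igf1 (insulin-like growth factor 1, 1.20) and Nox4 (an NADPH oxidase, 1.86).

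The lower genes had few members measured on both sides. Ces1d, a carboxylesterase, read 998 and 1161 in TAB against 2903 and 3587 in sham, after 469 to 796 in early TAB. Lgals4 (galectin 4) read 418 and 454 against 1095 and 1474, and the splicing regulator Rbfox1 read 121 and 198 against 317 and 434. All 3 stayed below every sham value on both days. Lgals4 and Rbfox1 are among the 8 lower genes called, together with Abca4, Evi2b, Fsd1l, Retnla, Tbc1d10c and Hopx, a homeodomain-only cofactor of cardiac transcription with a log2 difference of −1.10 ± 0.15 (limma SE; adjusted p = 0.0401 with found probes). Evi2b is the one of the 8 whose TAB values overlapped the sham range. The noncoding RNA Malat1 read 195 and 197 in TAB against 409 and 406 in sham, below the sham minimum of 307, and 237 to 327 in early TAB.

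Several clock genes differed between TAB and sham on day 14 and not on day 28, with the sham arrays of days 3 and 14 on one side and those of days 5, 7 and 28 on the other. Dbp, an output of the clock, read 2572 in TAB and 386 in sham on day 14 but 4626 and 5271 on day 28. Per3 read 456 and 87.2 on day 14 and 487 and 532 on day 28. Arntl, whose transcript cycles opposite in phase to those of the Per genes, read 316 and 1015 on day 14 and 48.5 and 41.1 on day 28. The sham array of day 14 was close to both day 3 arrays, where Dbp read 271 (TAB) and 259 (sham) and Arntl 868 and 936. No clock gene was 2-fold different in one direction on both days, and the hour of tissue collection, which is not given in the sources used here, was not tested. The promoter window of Per3 is shown for its D-boxes, the element bound by Dbp and its relatives (TTATGTAA on either strand, in capitals, 205 and 158 bases before the start), at chr4:151044616-151044915 on the minus strand of GRCm38.p6.
Per3: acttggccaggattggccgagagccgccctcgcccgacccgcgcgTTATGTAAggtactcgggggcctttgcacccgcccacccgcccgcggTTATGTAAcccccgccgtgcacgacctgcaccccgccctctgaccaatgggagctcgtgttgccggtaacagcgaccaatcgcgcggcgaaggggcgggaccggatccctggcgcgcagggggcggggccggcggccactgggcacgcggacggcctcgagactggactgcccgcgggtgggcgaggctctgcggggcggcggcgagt
The D-box was found in 1 of 20 windows of clock genes and in 0.938% of all windows, and the E-box CACGTG, bound by Arntl with Clock, in 5 of those 20 windows (Bhlhe41, Cry1, Per1 and Tef) and in 7.15% of all windows.

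Immediate-early genes, which respond to a stimulus within minutes, were lower by at least 2-fold in TAB on day 14 in 8 of 25 cases and on both days in 3, beside 5.49% and 0.825% of all genes, and in 1 on both days against the mean of the 5 sham arrays. The list had a median of −0.46 on day 14 and −0.04 on day 28. Egr1 read 1224 and 10503 (TAB and sham) on day 14 and 984 and 707 on day 28. Fos read 89.1 and 1159.6 on day 14 and 92.3 and 174 on day 28. The sham value of day 14 is the highest of all 10 arrays in both genes. Nr4a1, an orphan nuclear receptor, was lower on both days, at 548 and 333 against 2395 and 875, but its day 14 TAB value is above the lowest sham value of 413. Fos in TAB, at 89.1 and 92.3, was below the sham minimum of 129 on both days, and 354 to 448 in early TAB. The same sham array was high in atrial genes: Sln (sarcolipin) read 1765 there and 261 in TAB of day 14, and Myl7 (the atrial light chain) read 3869.8 and 820.1. On day 28 the log2 ratios were −0.49 for Sln and −0.49 for Myl7. Whether these values bear on the Nppa and Nppb ratios of day 14 was not tested.

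**Figure D5:**
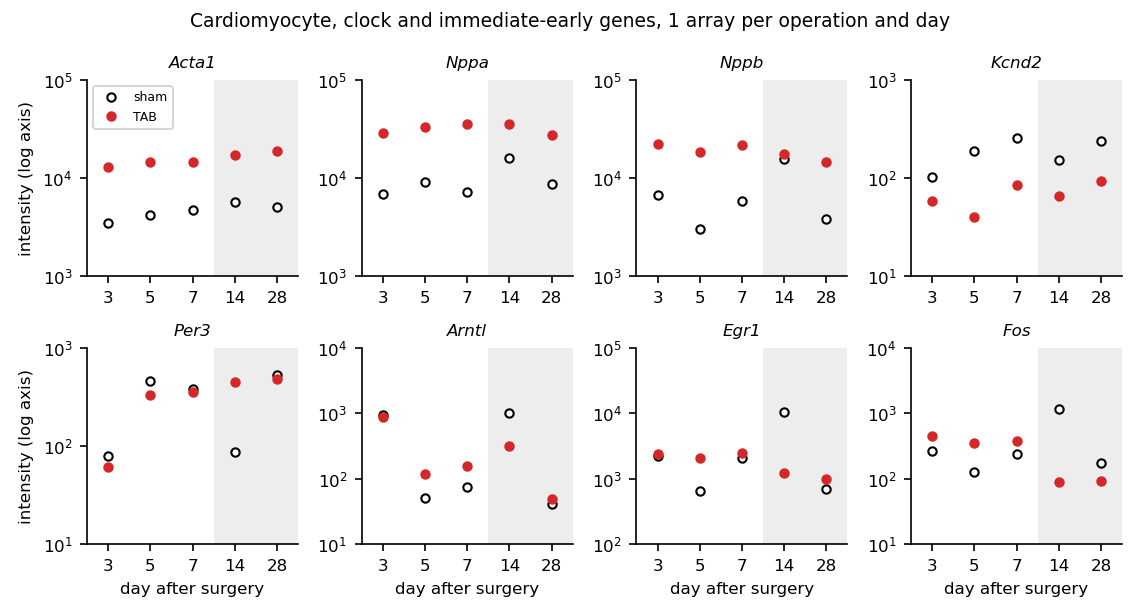
Normalized intensity (log axis) of 8 genes on each array by day after surgery, for sham (open) and TAB (red), 1 array per point, with days 14 and 28 shaded. Acta1 and Nppa are above and Kcnd2 is below every sham value on both late days, whereas Per3, Arntl, Egr1 and Fos show a sham value of day 14 apart from that of day 28.

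Of the 173 genes past 2-fold in opposite directions, 90 were higher on day 14 and 83 on day 28, and 14 were found on all 4 late arrays. Of these 14, the 8 with the largest gap were Clcn5, Itsn1, Krt79, Gfral, Plce1, Ccdc85c, Abcg3 and Aifm2, all lower in TAB on day 14 and higher on day 28. Clcn5, a chloride and proton exchanger, read 618 and 1328 in TAB and 1326 and 116 in sham. The TAB value of day 28 is close to the sham value of day 14, and the other sham arrays reach 2359.8. Of the 12 genes higher on day 28 in this set that were found on the 9 other arrays, 10 are low on the sham array of day 28 alone. The same array was low in list members such as Ccnb1 (a sham value of 31.6 against 343 on sham day 14) and Rsad2 (355 against 1107), and 3 of the 294 genes higher on both days are among the 132 (Mfap4, Slitrk4 and Hmox1). Against the mean of the 5 sham arrays in place of the sham array of the day, 94 of the 120 named genes past the 2-fold rule kept it, and against the 3 early sham arrays 84 did. With a pseudocount of 50, which damps dim spots, 56 of the 120 did, and with found probes 79 had a value and 76 kept the rule.

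Of the 294 higher genes, 164 (55.8%) were also at least 2-fold higher on all 3 early days, beside 689 (4.28%) of all genes, and 32 were so on 2 early days, 52 on 1 and 46 on none. Of the 133 lower genes, 21 (15.8%) were also lower on all 3 early days, beside 188 (1.17%) of all genes, and 27 were so on 2 early days, 39 on 1 and 46 on none. The probe of a gene was chosen by its ratios on all 5 days, so late and early ratios are not independent. Clec2d, a lectin, and Lrrn4cl had mean early log2 ratios of 0.18 and 0.18 and mean late ratios of 1.69 and 1.76. Lrrn4cl read 323 and 389 in late TAB, 112 to 269 in early TAB and 104 to 208 in sham. Lbp, which binds bacterial lipopolysaccharide, read 143 and 106 late against 37.5 to 73.1 in sham. All 3 were among the 78 called for the late effect.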

How the data were processed

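Left ventricular mRNA of TAB and sham mice was hybridised to a one-colour (Cy5) whole-genome mouse oligonucleotide array, 1 array per operation and day. The authors deposited raw spot intensity per probe, apparently with background already subtracted by a method not given in the sources used here, together with a spot flag and detection p-values, which were not used. Precision is limited by how many arrays there are. Arrays were scaled to a common median, probes below an intensity of 1 on any array were removed (6447 of 26423 probes; 19976 kept), quantile normalization set each rank to its median over arrays, and log2 was taken. Where a gene had several probes, the one whose log2 ratios, summed in size over the 5 days, were greatest stood for it, so the choice used the ratios themselves. Probes naming several genes were not used for any one gene.

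TAB and sham arrays of a day were paired by the design. Deviations of same-day arrays from their operation means correlated with r between −0.02 and 0.11 across genes. Differences were tested with limma 3.58.1 (R 4.3.3) on all 10 arrays with day as a block and separate late and early TAB effects, with Benjamini-Hochberg adjustment at 0.05, on a script tested on simulated data. Genes were named if they belonged to one of 32 lists (498 of 563 distinct members were measured), were among the 15 largest late differences in each direction, were among the 8 with the largest opposite ratios on the 2 days, or differed most between late and early days. Genes named from the 78 called with found probes were picked after their values were seen. The members and lists were chosen with earlier results of these data known. Promoter windows were from RefSeq (GRCm38.p6), 250 bases before to 50 after the start.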

Additional observations from a re-analysis of the deposited data

Results flagged for a closer look

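In 3 of the 32 gene lists examined, 1 sham array lay apart from the other 4 in the list's mean log2 intensity by a gap test. Chance alone passes this test in about 1 of 20 groups, so of 32 lists 1 or 2 would pass it. Macrophage genes had a mean log2 intensity of 7.56 on the sham array of day 3, and 7.25 to 7.30 on the others. Genes of T, B and NK cells had 4.36 on the sham array of day 14, and 4.66 to 4.76 on the others. Immediate-early genes had 7.87 on the sham array of day 14, and 6.98 to 7.23 on the others.

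The median log2 ratio of immediate-early genes was −0.25 on the late days and 0.21 on the early days, and that of the 3 lung markers was 0.70 late and −0.28 early. Of the 3 lung markers 2 were found on no late array and none on all 4, and their summed intensity was 18.4 on the sham array of day 28 and 43.8 to 59.2 on the other sham arrays, so that value is a ratio of dim spots that rests on 1 low array. Neither difference was tested.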

How the results depend on the processing

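For the late TAB effect, where limma called 0 genes, it called 242 with a pseudocount of 50, 78 with probes found on all 4 late arrays, 141 without the lowest tertile of genes, 438 with trend and robust estimation and 174 for the late TAB arrays against all 5 sham arrays. The fit without pairing by day (no block) called 66, and 5 for the late minus early difference, beside 0 in each with the block. For that difference the other settings called 10, 3, 7 and 34 in the same order. Without any 1 day the counts were 0 to 0 for both. The cause was not tested, beyond fewer genes tested where genes were left out.

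The 427 genes past 2-fold on both days became 83 with the pseudocount, 132 with found probes, 137 without the lowest tertile, 920 with probes below 1 set to 1, 1400 at 1.5-fold and 169 past 2 SDs, and were 1802 to 2110 on a day alone. The 4322 genes outside the sham range were 4805 to 8138 without any 1 array, 8138 without the TAB array of day 28. Leaving out an array drops a condition, so this count could not fall. The correlation of 0.229 became 0.394, 0.400, 0.367 and 0.0956 with the pseudocount, found probes, no lowest tertile and values set to 1, and 0.298 as Spearman's rho. Leaving out arrays from the sham range and the other sham references were chosen after seeing the data. Of 120 named genes past 2-fold, 3 turned: Hspa1a to 0.50 and Spa17 to 0.31 against the early sham arrays, and Mbp to 0.89 with found probes or the brightest probe. None of the 15 lists with a median beyond the sham pairs turned. With 1 array a day, dim spots limit the lower genes most.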
